A study of Mus musculus with 4 samples.

Results

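Genes of cytosolic protein synthesis were followed in the C17.2 line, mouse neural progenitor cells that were immortalised and can form several cell types, given the radical source AAPH with or without berberine. The members were every gene with an unambiguous symbol, in the authors' list of changed probes, that named a ribosomal protein (Rpl, Rps), an initiation factor (Eif), an elongation factor (Eef) or an aminoacyl-tRNA synthetase. This gave 89 genes measured by 105 probes, out of 8519 named genes and 26423 probes. They comprised 15 large-subunit and 11 small-subunit ribosomal proteins, 23 initiation factors, 4 eIF2 kinases and 3 4E-binding proteins. They also held 1 gene named as an elongation factor, 15 cytosolic synthetases and 14 mitochondrial synthetases. The symbol rule also took in Eif2c1, Eif2c2 and Eif2c3, which RefSeq now lists as the Argonaute genes Ago1, Ago2 and Ago3, and the mitochondrial synthetases, so the set is wider than cytosolic translation. Among protein-coding genes of the mouse RefSeq annotation, 85 of 187 with such symbols were members, and for elongation factor symbols 1 of 15. That gene is Eef1e1, which encodes the synthetase-complex protein AIMP3.

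The treated cultures received 7.38 mM AAPH and 1.69 µM berberine for 12 h (2 arrays), and the cultures they were set against received 7.38 mM AAPH alone for 12 h (2 arrays). AAPH is an azo compound that decays into peroxyl radicals in water, and berberine is a plant isoquinoline alkaloid. All 4 cultures therefore carried the oxidative damage, and cells without AAPH were not analysed here. The labels do not say whether the 2 samples of a group came from separate cultures, so p-values measure only the spread between these arrays. The number of arrays limits the precision of every value.

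Each ribosome is built of RNA and a large set of ribosomal proteins in 2 subunits. Synthetases charge tRNAs with amino acids, initiation factors bring the start tRNA, the mRNA and the small subunit together, and elongation factors move the ribosome along the message. Cells under stress commonly slow this machinery through kinases that phosphorylate eIF2 and through 4E-binding proteins that hold back the cap-binding factor eIF4E. Ribosomal protein mRNAs are known for a run of pyrimidines at their very start, which lets the mTOR pathway adjust their translation, and several synthetase genes are known targets of the stress factor ATF4.

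Both features were looked for in the RefSeq promoter windows (mouse GRCm38.p6, 250 bases before to 50 after the annotated start), which held an entry for 68 of the 89 members. A C at the first transcribed base followed by 4 bases that are each C or T was present in 6 of 21 ribosomal protein genes (28.6%) and in 3.01% of 27025 genes in the table. Outside the ribosomal proteins it was in Eif2s3x and Wars2. A tract lying away from the annotated start was not counted, so the other ribosomal protein genes are not shown to lack one. The 6 starts are shown because this tract is the feature for which the mRNAs of the class are known. Each runs from 25 bases before the start to 20 after it, and capitals mark the unbroken pyrimidine tract from the first transcribed base.
Rpl14 (chr9:120571492-120571536, + strand): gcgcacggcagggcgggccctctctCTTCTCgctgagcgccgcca
Rpl35a (chr16:33056457-33056501, + strand): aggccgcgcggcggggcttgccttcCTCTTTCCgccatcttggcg
Rpl38 (chr11:114668555-114668599, + strand): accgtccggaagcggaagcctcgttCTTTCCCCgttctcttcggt
Rps15a (chr7:118116128-118116172, - strand): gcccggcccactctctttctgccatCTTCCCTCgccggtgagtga
Rps21 (chr2:180257354-180257398, + strand): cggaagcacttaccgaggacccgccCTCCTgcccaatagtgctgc
Rps27 (chr3:90213629-90213673, - strand): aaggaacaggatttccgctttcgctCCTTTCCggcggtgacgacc

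The second feature is TGATGCAA, the core of the element through which ATF4 is known to act, searched on both strands. It was present in 3 of 9 cytosolic synthetase genes with an entry, in 0 of 12 mitochondrial synthetase genes, in 0 of 21 ribosomal protein genes and in 1.03% of all genes in the table. The 3 stretches are shown because these genes went different ways with berberine, as described below for each. Capitals mark the match, which lies on the opposite strand to the gene in all 3, where it reads as its reverse complement.
Aars (chr8:111033710-111033757, + strand): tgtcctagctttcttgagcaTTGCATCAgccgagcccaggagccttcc
Iars (chr13:49682117-49682149, + strand): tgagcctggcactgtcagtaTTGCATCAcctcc
Tars (chr15:11399646-11399693, - strand): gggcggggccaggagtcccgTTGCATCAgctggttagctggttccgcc
With any base at the sixth letter (TGATGNAA, a search that includes the first) the same 3 synthetases and Eif2s3x matched, against 4.51% of all genes. The E-box CACGTG, which Myc-family factors can bind, was in 4 of 9 cytosolic synthetase windows (Aars, Farsb, Iars and Tars), in 0 of 12 mitochondrial ones, in 5 of 18 initiation factor windows, in 2 of 21 ribosomal protein windows, in 11 of all 68 member windows (16.2%) and in 8.09% of all genes. CTTCCGG, an ETS-type site, was in 20 of 68 member windows and 9.93% of all genes. GCCGCCAT, read by YY1, was in 6 of 68 and 2.61%, and TTTCTTCC, a pyrimidine-rich element, was in 4 of 68 and 3.69%. These were all 7 patterns searched, each double-stranded except the tract at the start. A match describes the letters and does not show a bound site.

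The median deposited intensity of the members was 669 and 748 on the berberine arrays, against 5465 and 4672 on the AAPH-only arrays. With berberine, 59 of the 89 genes fell, 28 rose and 2 did not pass (limma over all probes after quantile normalization, adjusted p under 0.05). The median log2 fold change of the members was −2.23, against 1.22 over all 8519 named genes and 0.39 over all 26423 probes. Every member has a name only because the authors had already called a probe of it changed on these same arrays, so the number that passed is fixed by the choice of members and supports nothing by itself. Over all probes 62.7% passed, 22.5% lower and 40.2% higher, and over all named genes 99.7% passed, 44.1% lower and 55.6% higher. The 2 groups' intensities did not overlap in 88 of the 89 genes, against 66.9% of all probes. The choice of members from called probes favours such separation too, so this is not a like comparison and supports nothing by itself. The share among all named genes was not computed. Limma adjusted p-values of the members ran from 0.000186 to 0.0693.

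**Figure D1:**
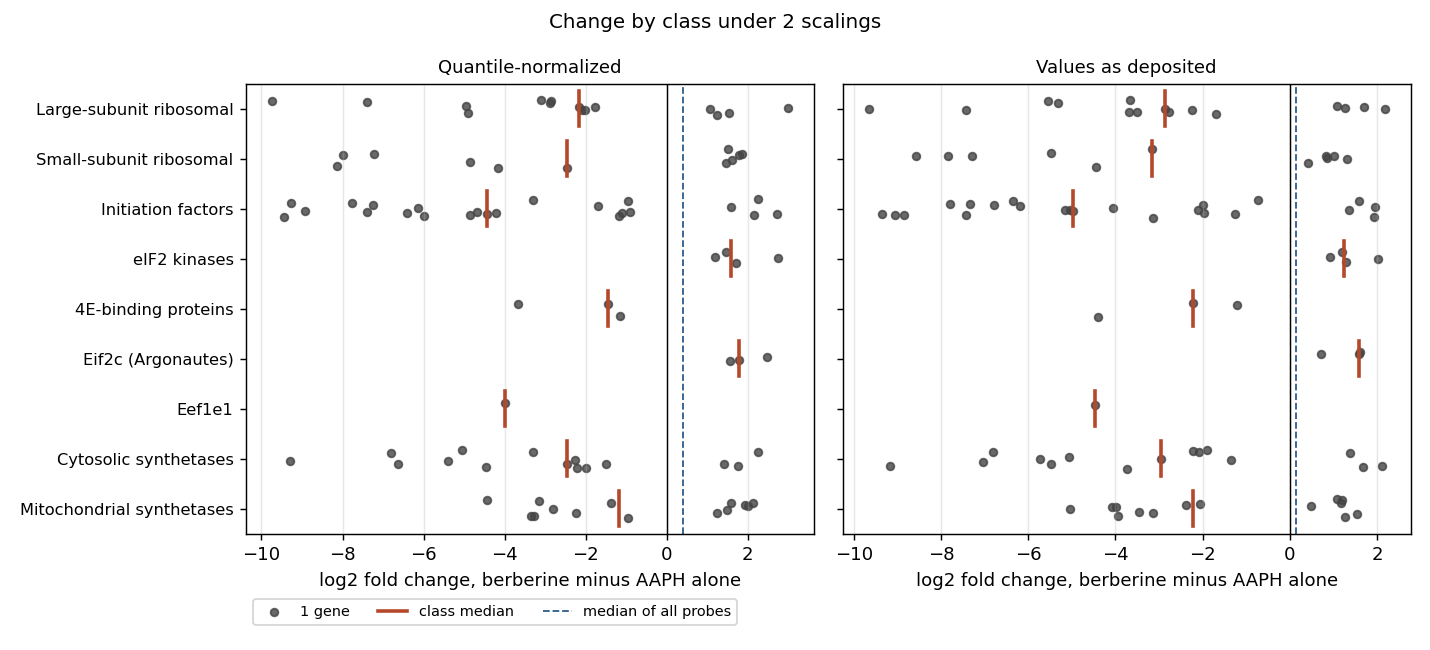
Log2 fold change (berberine minus AAPH alone) of each of the 89 genes by class, after quantile normalization on the left and on the values as deposited on the right. Bars are class medians and the dashed line is the median of all probes. Fitted values of genes at background, 7 of the 23 initiation factors among them, are not measured folds. The median of the initiation factors is −4.44, and the 4 eIF2 kinases all lie above 0 on both scales.

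Level on the AAPH-only arrays moved with the direction of change. Members that fell had a median log2 level of 12.96 on the AAPH-only arrays and 7.83 on the berberine arrays. Members that rose had 10.99 with AAPH alone and 12.62 with berberine. The AAPH-only level is itself a term of the fold change, so part of this relation, also in the shares below, is built in. Among members within the brightest 2840 named genes by AAPH-only level, 38 of 48 (79.2%) fell, against 66.8% of those named genes. In the middle 2839, 16 of 30 members (53.3%) fell, against 41.0%, and in the dimmest 2840, 5 of 11 (45.5%), against 24.3%. Probe series, read from the start of the probe's name, moved with the direction of change too. With PH_mM probes 38 of 61 members (62.3%) fell, against 34.0% of named genes on such probes, and with mMC or mMR probes 21 of 28 (75.0%), against 57.2%. The part of AAPH-only level and probe series in the members' changes was not tested.

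In 24 of the 89 genes the probe was at background on the berberine arrays, meaning that the authors' detection p-value for that group was 0.01 or more, and in 1 it was at background with AAPH alone. For these genes a bound is given, "at least N-fold". It compares the mean of the detected group with a ceiling for the dim group, which on each array is the dim probe's value or the lowest signal of any detected probe, whichever is greater, as normalized log2 values. Scaling also matters for the rises. On the values as deposited, where 33.2% of all probes passed, 58 genes were called lower (19.8% of all probes) and 19 higher (13.4%), with no change of sign in any of the 89. Array medians were 189 and 206 with berberine, against 333 and 273 with AAPH alone. In a bulk RNA sample, fewer cells of a type and less RNA per cell cannot be told apart.

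The identity of the cells could be checked only through named probes. Of 16 listed neural progenitor markers 6 were measured, 4 lower (Sox9, Id2, Hes1 and Bmi1) and 2 higher (Msi1 and Prom1), with a summed intensity of 4005 and 4367 with berberine and of 20766 and 17959 with AAPH alone, and nestin and Sox2 were not among them. Markers of other cells moved with the groups. The summed intensity of 6 of 10 astrocyte markers was 8497 and 7435 with berberine, against 5395 and 4335 with AAPH alone, and that of 7 of 10 oligodendrocyte markers 84758 and 68439 with berberine, against 30108 and 24458 with AAPH alone. All 13 were called higher after quantile normalization. On the values as deposited only 1 of the 6 astrocyte and 3 of the 7 oligodendrocyte markers were. After quantile normalization 55.6% of all named genes and 40.2% of all probes were higher, and 13.4% of all probes as deposited. These markers have names only through the authors' prior calls, so the number called supports nothing by itself. The sums were 37797 and 39099 with berberine, against 29782 and 24546 with AAPH alone for 9 of 12 neuron markers (3 lower, namely Tubb3, Map2 and Ncam1, and 6 higher), 10408 and 7479 with berberine, against 23513 and 18532 with AAPH alone for 4 of 8 fibroblast markers, 872 and 772 with berberine, against 2186 and 1880 with AAPH alone for 4 of 8 microglial markers, and 1606 and 1712 with berberine, against 1275 and 1134 with AAPH alone for 3 of 7 endothelial markers. Of the fibroblast markers 3 were lower and 1, Col1a1, was higher after quantile normalization. Microglial markers were split, with Cd68 and Tmem119 lower and Csf1r and P2ry12 higher. All 3 endothelial markers were higher, but 0 of them were called on the values as deposited. The direction of the neuron sum rests on Nefm, without which it was 7622 and 6940 with berberine, against 23282 and 18721 with AAPH alone. No measured marker was at 0, and the part of these markers in the members' changes was not tested.

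Ribosomal proteins were split within both subunits. In the large subunit 11 of 15 genes fell and 4 rose (median log2 fold change −2.18, or −2.10 with genes at background set at their bounds). In the small subunit 6 of 11 fell and 5 rose (median −2.47, or −1.89 with bounds). The shares lower were 73.3% and 54.5%, against 44.1% of all named genes. All 6 small-subunit genes that fell, and 6 of the 11 large-subunit ones, were at background with berberine, so their falls are bounds and not measured folds. Among the 5 small-subunit genes measured above background in both groups, all rose, with a median of 1.60, but that filter removes the genes that fell. Of these 5, Rps7 has another probe that fell, and only 1 was called higher on the values as deposited.

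Rpl34, a protein of the large subunit, had intensities of 2 and 24 with berberine, against 6311 and 4960 with AAPH alone. It was at least 35.3-fold lower. Rpl29, a small basic protein on the surface of the large subunit, had 52 and 55 with berberine, against 10378 and 8231 with AAPH alone, and was at least 66.4-fold lower. Rpl35a, which is mutated in some patients with Diamond-Blackfan anaemia, had 49 and 86 with berberine, against 3282 and 2825 with AAPH alone, and was at least 16.2-fold lower. Its start carries one of the tracts printed above. Rpl30 was measured above background on its brighter probe, at 374 and 387 with berberine, against 16425 and 13770 with AAPH alone, and fell by 4.92 ± 0.11 on the log2 scale (SE of the fit, limma adjusted p = 0.000186). Its dimmer probe fell too, to 72 and 84 with berberine, against 2305 and 1590 with AAPH alone. In all 4 genes both berberine arrays lay far below both AAPH-only arrays. Rpl10a and Rpl21 were at background with berberine and at least 4.29-fold and 4.26-fold lower. Rpl13, Rpl24, Rpl38 and Rpl4 fell above background, with log2 fold changes of −2.89 to −1.77. Rpl4 was bright in all samples, at 63385 and 61425 with berberine, against 214277 and 189035 with AAPH alone.

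The rises were smaller and were read from probes above background. Rpl27 rose to 1948 and 1143 with berberine, against 371 and 295 with AAPH alone (log2 2.99 ± 0.22). Rpl5, which binds 5S ribosomal RNA and, outside the ribosome, the p53 regulator MDM2, rose to 39734 and 31353 with berberine, against 12680 and 9227 with AAPH alone (1.53 ± 0.14). Rpl14, another gene with a printed tract, had 16022 and 11067 with berberine, against 6898 and 5717 with AAPH alone (1.25 ± 0.13), and Rpl37a had 36538 and 24729 with berberine, against 14620 and 10865 with AAPH alone (1.06 ± 0.16). The groups did not overlap in any of these 4, as in 88 of the 89 members and 66.9% of all probes. Limma adjusted p-values of the 4 ran from 0.00116 to 0.00712. On the values as deposited Rpl14 and Rpl37a were no longer called (log2 1.08, adjusted p = 0.0612, and 1.25, adjusted p = 0.0538), and Rpl37a also lost its call without AAPH-only array 2 (log2 1.02, limma adjusted p = 0.0619).

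In the small subunit, Rps3a had 1 and 23 with berberine, against 1975 and 1700 with AAPH alone, and was at least 9.28-fold lower. Rps27a, which encodes a ubiquitin fused to a ribosomal protein, had 23 and 34 with berberine, against 7028 and 5847 with AAPH alone, and was at least 42.4-fold lower. Rps21 had 60 and 84 with berberine, against 12598 and 9713 with AAPH alone, at least 83.0-fold lower, and Rps16 had 52 and 76 with berberine, against 3251 and 2382 with AAPH alone, at least 14.6-fold lower. These probes all went from clear signal with AAPH alone to background with berberine. Rps27 and Rps13 were also at background with berberine, with bounds of 3.70-fold and 5.04-fold lower. Rps13 lost its call without either AAPH-only array (log2 −2.26 without array 1 and −2.46 without array 2, limma adjusted p = 0.0576 and 0.0560).

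Rps15a rose to 7968 and 8401 with berberine, against 3530 and 3061 with AAPH alone (log2 1.86 ± 0.16, limma adjusted p = 0.00161). Rps3, which also takes part in DNA repair, had 4725 and 4160 with berberine, against 2515 and 1925 with AAPH alone (1.78 ± 0.12). Rps25 had 6505 and 4061 with berberine, against 3252 and 2578 with AAPH alone (1.51 ± 0.16), and Rps2 had 1514 and 1794 with berberine, against 1418 and 1092 with AAPH alone (1.45 ± 0.17). Of these 4 genes only Rps15a was still called on the values as deposited, and Rps7, the fifth small-subunit gene that rose, was not (log2 0.86, limma adjusted p = 0.0809). There the log2 fold change was 1.01 for Rps3 (limma adjusted p = 0.0515), 0.83 for Rps25 (0.151) and 0.41 for Rps2 (0.324). Among the 6 genes with a printed tract, Rpl35a, Rpl38, Rps21 and Rps27 fell and Rpl14 and Rps15a rose.

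**Figure D2:**
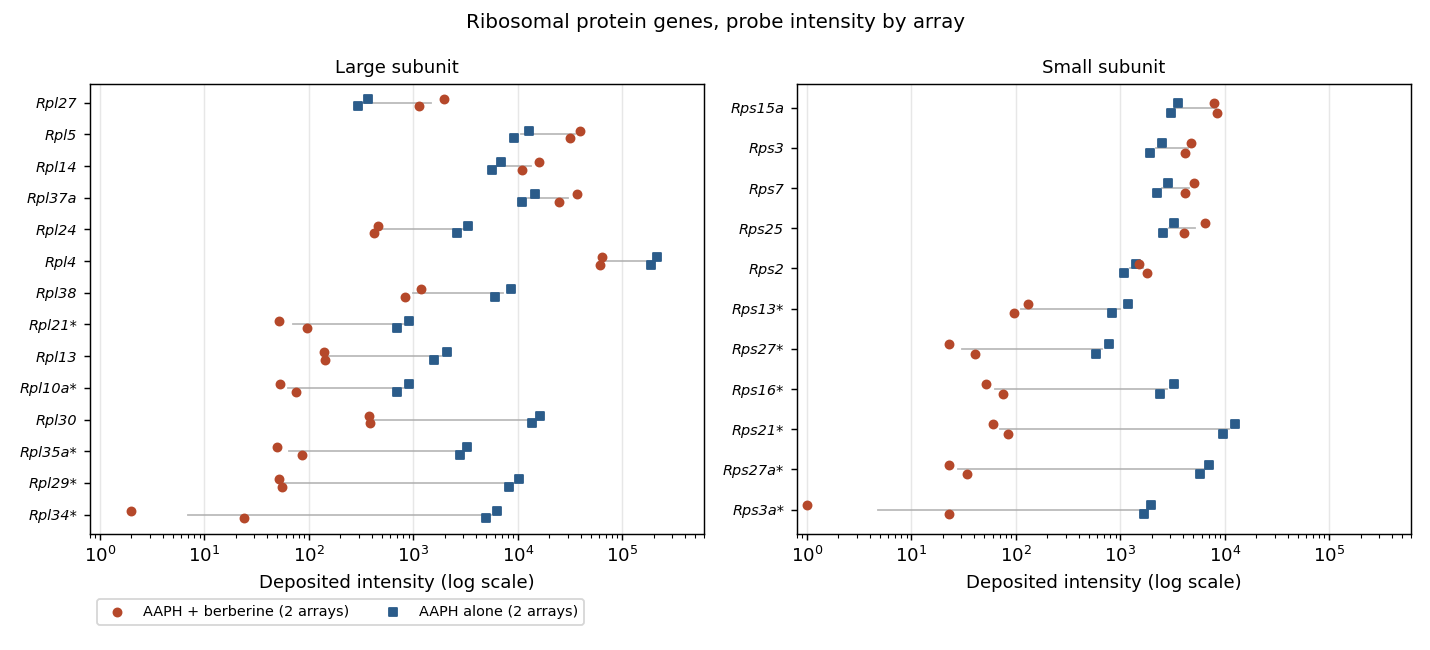
Deposited intensity (log scale) of 14 large-subunit and 11 small-subunit ribosomal protein genes on each array, berberine arrays as circles and AAPH-only arrays as squares, with grey lines joining the group geometric means and an asterisk on genes at background with berberine. Genes run from the largest rise at the top (Rpl27, Rps15a) to the largest fall at the bottom (Rpl34, Rps3a), and the 5 small-subunit genes without an asterisk are the 5 that rose. Rps7 is shown by its brighter probe, and its other probe fell.

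Most initiation factors fell, 82.6% of them, against 44.1% of all named genes and 66.8% of the 2840 named genes brightest with AAPH alone. Falls numbered 19 and rises 4 among 23 genes (median log2 fold change −4.44, or −4.38 with genes at background set at their bounds), and their median intensity was 579 and 487 with berberine, against 23063 and 20088 with AAPH alone. The 5 measured subunits of eIF3, the large scaffold that holds the small subunit ready for mRNA, all fell. Of these 4 were at background with berberine, and the median log2 fold change with those at their bounds was −7.27. The 3 measured genes of eIF2, the factor that carries the initiator tRNA, and the 2 of its exchange factor eIF2B fell too. Of 8 measured eIF4 genes, which recognise the mRNA cap and unwind the leader, 6 fell and 2 rose. The 4 that rose were Eif5, Eif2d, Eif4g2 and Eif4g3. Over the 16 initiation factors above background in both groups the median was −1.43, a choice that leaves out 7 genes that fell.

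Eif3b, a core subunit of the scaffold, had 81 and 106 with berberine, against 67658 and 54018 with AAPH alone, and was at least 551-fold lower. Eif3e had 23 and 45 with berberine, against 20144 and 14474 with AAPH alone (at least 138-fold lower), and Eif3i had 41 and 66 with berberine, against 28044 and 20155 with AAPH alone (at least 201-fold lower). Eif3a, the largest subunit, was at least 155-fold lower. Eif3l was the eIF3 gene still above background in both groups, at 209 and 185 with berberine, against 37065 and 26815 with AAPH alone, and fell by 7.24 ± 0.19 on the log2 scale (limma adjusted p = 0.000192). Eif4b, which stimulates the helicase eIF4A, had 118 and 145 with berberine, against 28302 and 29256 with AAPH alone, and was at least 210-fold lower. In each of these genes both berberine arrays lay far below both AAPH-only arrays.

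Among the eIF4 genes, the scaffold Eif4g1 fell to 1327 and 1111 with berberine, against 44617 and 32871 with AAPH alone (log2 −4.69 ± 0.14). The helicase Eif4a1 fell to 11002 and 11400 with berberine, against 199021 and 174124 with AAPH alone (−4.22 ± 0.16), and the cap-binding homologue Eif4e2 to 1297 and 1201 with berberine, against 46850 and 41903 with AAPH alone (−4.86 ± 0.11). Limma adjusted p-values of these 3 were 0.000316 or lower. All 3 stayed above background in both groups. Eif4e3, another cap-binding homologue, had a small fall (−0.91 ± 0.17) that lost its call without AAPH-only array 2 (log2 −0.78, limma adjusted p = 0.0833) or berberine array 2 (−0.79, 0.0640). Eif5a, which carries the amino acid hypusine and helps ribosomes through difficult peptide bonds, had 3 named probes, and all 3 fell. Its brightest had 2546 and 2701 with berberine, against 205498 and 175544 with AAPH alone (−5.98 ± 0.14), and the other pair were at background with berberine.

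In the eIF2 group, Eif2b1 fell to 130 and 145 with berberine, against 12152 and 10404 with AAPH alone (log2 −6.14 ± 0.12), and Eif2b5, the catalytic subunit of the exchange factor, was at least 20.8-fold lower. Eif2s3x, the X-linked gamma subunit that binds the tRNA, fell by 3.30 ± 0.15 on the log2 scale, and the beta subunit gene Eif2s2 by 1.70 ± 0.12 on its brighter probe. A dimmer probe of Eif2s2 that shares its RefSeq accession and was above background in both groups fell by 4.94 ± 0.11. Eif2s1, the alpha subunit that stress kinases phosphorylate, had 334 and 324 with berberine, against 1555 and 1274 with AAPH alone, with a change of −1.11 ± 0.11. Eif6, which keeps free large subunits from joining, had 34751 and 34273 with berberine, against 64538 and 50105 with AAPH alone, with a change of −1.17 ± 0.14 that was not called on the values as deposited (log2 −0.72, limma adjusted p = 0.102) or after median centring (−0.11, 0.569). Eif5a2 fell by 0.96 ± 0.11.

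Eif5, which makes eIF2 hydrolyse its GTP at the start codon, rose to 3999 and 3870 with berberine, against 1070 and 975 with AAPH alone (log2 2.73 ± 0.14). Eif4g2, a scaffold known for translation without the cap complex, rose to 4539 and 3576 with berberine, against 1673 and 1500 with AAPH alone (2.16 ± 0.12), and its dimmer probe rose to 1208 and 1391 with berberine, against 852 and 336 with AAPH alone. Eif2d, which can place tRNA on the ribosome without eIF2, had, on its brighter probe, 18605 and 13867 with berberine, against 5146 and 3458 with AAPH alone (2.24 ± 0.17), and Eif4g3 had 23329 and 21678 with berberine, against 7656 and 7361 with AAPH alone (1.58 ± 0.16). All 4 genes were also called higher on the values as deposited. For Eif2d and Eif4g3 a second probe moved the other way, as given further on.

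Each of the 4 kinases that phosphorylate eIF2 rose (median log2 fold change 1.58). Eif2ak2 (PKR), which senses double-stranded RNA, had 6012 and 5320 with berberine, against 1577 and 1224 with AAPH alone (2.75 ± 0.12). Eif2ak4 (GCN2), which senses uncharged tRNA, had 11633 and 8743 with berberine, against 4668 and 3615 with AAPH alone (1.71 ± 0.12). Eif2ak3 (PERK), the kinase of the endoplasmic reticulum, had 9429 and 5592 with berberine, against 4060 and 3585 with AAPH alone (1.46 ± 0.19), and Eif2ak1 (HRI), which responds to haem shortage and mitochondrial stress, had 20247 and 18873 with berberine, against 9881 and 7310 with AAPH alone (1.18 ± 0.14). Limma adjusted p-values of the 4 ran from 0.000401 to 0.00453. Berberine arrays lay above AAPH-only arrays for each kinase, and 55.6% of all named genes were also higher. On the values as deposited Eif2ak3 was not called (log2 0.93, limma adjusted p = 0.122) and the other 3 were.

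The 3 genes for 4E-binding proteins had lower signal with berberine, of which 2 passed. Eif4ebp3 fell to 140 and 174 with berberine, against 3540 and 3092 with AAPH alone (log2 −3.67 ± 0.12, limma adjusted p = 0.000268). Eif4ebp1, the best studied mTOR target among them, had 16268 and 11381 with berberine, against 36856 and 27271 with AAPH alone (−1.46 ± 0.14), which was not called on the values as deposited (−1.22, limma adjusted p = 0.0537) or after median centring (−0.61, 0.166). Eif4ebp2, the main form in brain, had 289 and 551 with berberine, against 2008 and 1746 with AAPH alone, on its brighter probe (−1.16 ± 0.40, limma adjusted p = 0.0693). Its dimmer probe had 386 and 398 with berberine, against 2156 and 1602 with AAPH alone, and passed (−1.21 ± 0.12, limma adjusted p = 0.00223). The brighter probe itself passed with either berberine array left out (log2 −0.61 without array 1 and −1.77 without array 2, limma adjusted p = 0.0373 and 0.0123).

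The Argonaute genes, whose proteins load small RNAs and silence mRNAs, were all above 0 in fold change. Eif2c2 (Ago2) had 1012 and 940 with berberine, against 373 and 274 with AAPH alone (log2 2.47 ± 0.12), and Eif2c1 (Ago1) had 18104 and 15216 with berberine, against 6100 and 4987 with AAPH alone (1.77 ± 0.11). Both rises were also called on the values as deposited. Eif2c3 (Ago3) had 344 and 769 with berberine, against 422 and 236 with AAPH alone, the only member whose groups overlapped, and it did not pass (1.55 ± 0.51, limma adjusted p = 0.0624). Without berberine array 1 it was called (log2 2.26, limma adjusted p = 0.0264).

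**Figure D3:**
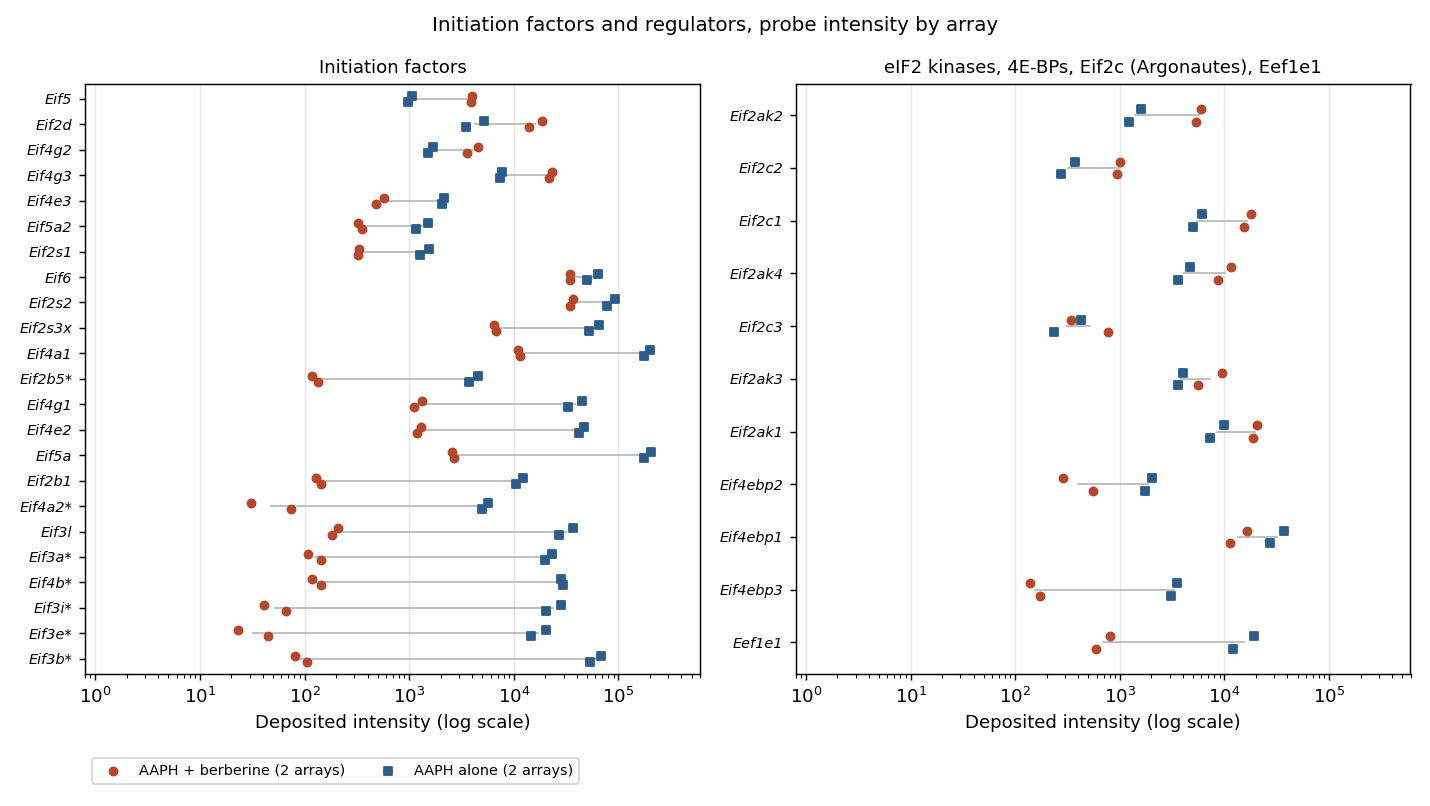
Deposited intensity (log scale) of 23 initiation factor genes on the left and of the eIF2 kinases, 4E-binding proteins, Eif2c (Argonaute) genes and Eef1e1 on the right, berberine arrays as circles and AAPH-only arrays as squares, with grey lines joining the group geometric means and an asterisk on genes at background with berberine. Most initiation factors lie to the left with berberine, the eIF3 genes at the bottom, while the 4 kinases lie to the right.

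Eef1e1, which encodes the synthetase-complex protein AIMP3 and is the only member named as an elongation factor, fell to 807 and 598 with berberine, against 19106 and 12190 with AAPH alone (log2 −3.98 ± 0.23, limma adjusted p = 0.000697). No other gene with an elongation factor symbol of the rule was a member. A further 5 probes that pair a symbol of the rule with another symbol were not used.

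Among synthetases, 12 of 15 cytosolic genes fell and 3 rose (median log2 fold change −2.47), and 8 of 14 mitochondrial genes fell and 6 rose (median −1.17). The shares lower were 80.0% and 57.1%, against 44.1% of all named genes. For 9 amino acids both the cytosolic and the mitochondrial enzyme were measured. In 5 of these pairs both fell (Cars, Rars, Sars, Tars and Vars, each with its mitochondrial partner), in 2 both rose (Aars and Hars with Aars2 and Hars2), and in 2 the cytosolic gene fell and the mitochondrial one rose (Nars with Nars2, Wars with Wars2). The mitochondrial median turned to 0.13 when only PH_mM probes, or only genes above background in both groups, were kept. No mitochondrial gene lay near that value. The closest on either side were Sars2 (−0.97) and Yars2 (1.23), so it is the midpoint of a split class.

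Rars, the arginine enzyme and a member of the multi-synthetase complex, had 12 and 46 with berberine, against 14949 and 12143 with AAPH alone, and was at least 105-fold lower. Farsb, a subunit of the phenylalanine enzyme, fell to 358 and 378 with berberine, against 50159 and 45945 with AAPH alone (log2 −6.80 ± 0.12), and its partner Farsa was at least 19.7-fold lower. Both chains of that enzyme thus fell. Vars, the valine enzyme, had 80 and 114 with berberine, against 12610 and 9120 with AAPH alone, and was at least 79.4-fold lower. Qars, the glutamine enzyme of the multi-synthetase complex, fell to 198 and 156 with berberine, against 11531 and 7567 with AAPH alone (−5.40 ± 0.27). Limma adjusted p-values of these 5 genes lay at 0.000553 or below. Wars, Iars, Cars, Eprs, Nars, Sars and Tars fell as well, with log2 fold changes of −5.05 to −1.51. Eprs, the fused glutamate and proline enzyme, fell on both of its named probes.

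Aars, the alanine enzyme, had 669 and 748 with berberine, against 493 and 149 with AAPH alone, where it was at background. On the fit it was 4.79-fold higher (log2 2.26 ± 0.48, limma adjusted p = 0.0190). Its bound is also 4.79-fold, so here the bound is the fitted fold and not a minimum. The call was lost on the values as deposited (log2 1.38, limma adjusted p = 0.193). After median centring (limma adjusted p = 0.0624) and with a floor of 64 (limma adjusted p = 0.0750) it was lost too. It was also lost without either berberine array (log2 2.43 without array 1 and 2.29 without array 2). Hars, the histidine enzyme, rose to 92752 and 66259 with berberine, against 19046 and 17051 with AAPH alone (1.75 ± 0.15), and Dars, the aspartate enzyme, to 52846 and 37575 with berberine, against 16785 and 11630 with AAPH alone (1.40 ± 0.17), and these 2 were called on the values as deposited too. The 3 synthetases with the printed TGATGCAA match moved apart. Aars is the one that was higher, Iars fell to 1378 and 990 with berberine, against 17772 and 13565 with AAPH alone (−3.29 ± 0.17), and Tars fell to 11923 and 8854 with berberine, against 29042 and 23259 with AAPH alone (−1.51 ± 0.12). Tars was not called after median centring (log2 −0.73, limma adjusted p = 0.0928).

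In mitochondria, Cars2, the cysteine enzyme, fell to 141 and 146 with berberine, against 5265 and 4248 with AAPH alone (log2 −4.45 ± 0.13). Rars2 fell to 270 and 275 with berberine, against 5235 and 4048 with AAPH alone (−3.35 ± 0.12), and Lars2, the leucine enzyme, to 328 and 306 with berberine, against 5465 and 4672 with AAPH alone (−3.27 ± 0.13). Mars2, the methionine enzyme, was at least 8.36-fold lower, at 110 and 144 with berberine, against 2054 and 1797 with AAPH alone, and its second probe fell too. These 4 genes did not overlap between groups, as was so for 88 of the 89 members and 66.9% of all probes. Pars2, at background with berberine, was at least 5.00-fold lower, and Tars2, Vars2 and Sars2 fell with log2 fold changes of −2.25 to −0.97. Tars2 lost its call without either AAPH-only array (log2 −2.13 without array 1 and −2.26 without array 2, limma adjusted p = 0.0551 and 0.0518) and Vars2 without AAPH-only array 2 (−1.26, 0.0567).

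Hars2 rose to 2113 and 1595 with berberine, against 929 and 701 with AAPH alone (log2 2.13 ± 0.13). Aars2 had 5002 and 5249 with berberine, against 2199 and 2064 with AAPH alone (1.99 ± 0.17), and Nars2 4597 and 4625 with berberine, against 2185 and 1917 with AAPH alone (1.93 ± 0.14). Fars2 had, on its brightest probe, 8195 and 7404 with berberine, against 4011 and 3400 with AAPH alone (1.59 ± 0.12), and Yars2, the tyrosine enzyme, 52040 and 41069 with berberine, against 17521 and 14631 with AAPH alone (1.23 ± 0.11). These 5 were also called higher on the values as deposited. Wars2 rose on both of its named probes (1.49 and 1.19), but on the values as deposited neither was called (0.47, limma adjusted p = 0.269, and 0.73, adjusted p = 0.0739).

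**Figure D4:**
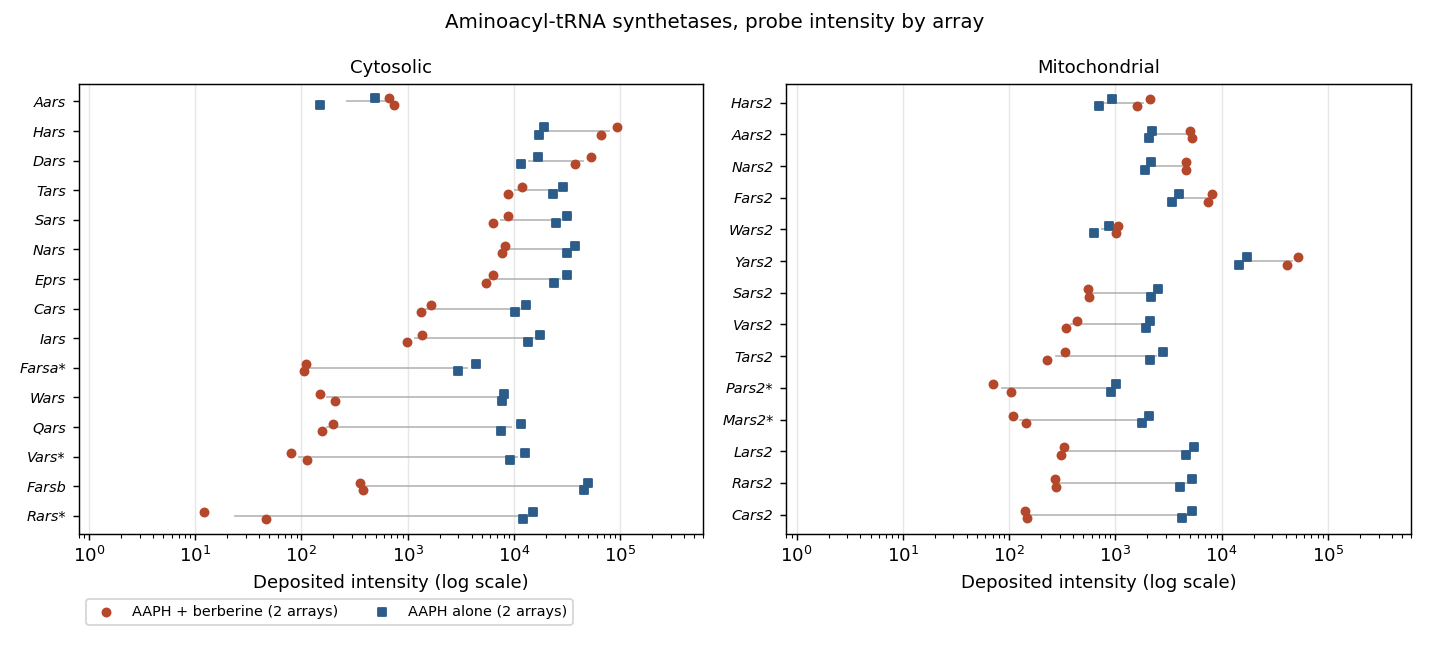
Deposited intensity (log scale) of 15 cytosolic and 14 mitochondrial synthetase genes on each array, berberine arrays as circles and AAPH-only arrays as squares, with grey lines joining the group geometric means and an asterisk on genes at background with berberine. In the cytosolic panel Aars, Hars and Dars at the top lie to the right with berberine and the other 12 lie to the left, and in the mitochondrial panel 6 lie to the right and 8 to the left.

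Probes of a gene did not always move together. Of the 14 members with several named probes, 5 (35.7%) had probes that moved in opposite directions, against 47.5% of 623 such named genes, and in 4 of the 5 the probes carried a shared RefSeq transcript accession. Rps7 had 5029 and 4122 with berberine, against 2845 and 2222 with AAPH alone, on its brighter probe by the mean of all arrays (log2 1.60 ± 0.11). Its other probe had 68 and 85 with berberine, against 38911 and 31046 with AAPH alone, and was at least 302-fold lower. For Eif2d the second probe had 52 and 74 with berberine, against 8046 and 6699 with AAPH alone, at least 50.2-fold lower where the brighter probe rose. The pattern is the same for Eif4g3, whose second probe had 2 and 35 with berberine, against 2457 and 1904 with AAPH alone (at least 11.1-fold lower). In Eif4a2, a helicase paralogue of Eif4a1, the brighter probe had 31 and 75 with berberine, against 5686 and 4950 with AAPH alone (at least 32.7-fold lower), and the dimmer one 190 and 167 with berberine, against 63 and 78 with AAPH alone, where it was at background (at least 2.22-fold higher). The 2 dim probes of Fars2 were at least 1.99-fold and 2.73-fold lower, and these share no accession with the brightest. For these 5 genes the direction is that of a probe and not of the gene. The other 9 genes with several probes kept a common direction, among them Rpl30, Eif2s2, Eif5a, Eprs and Mars2.

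**Figure D5:**
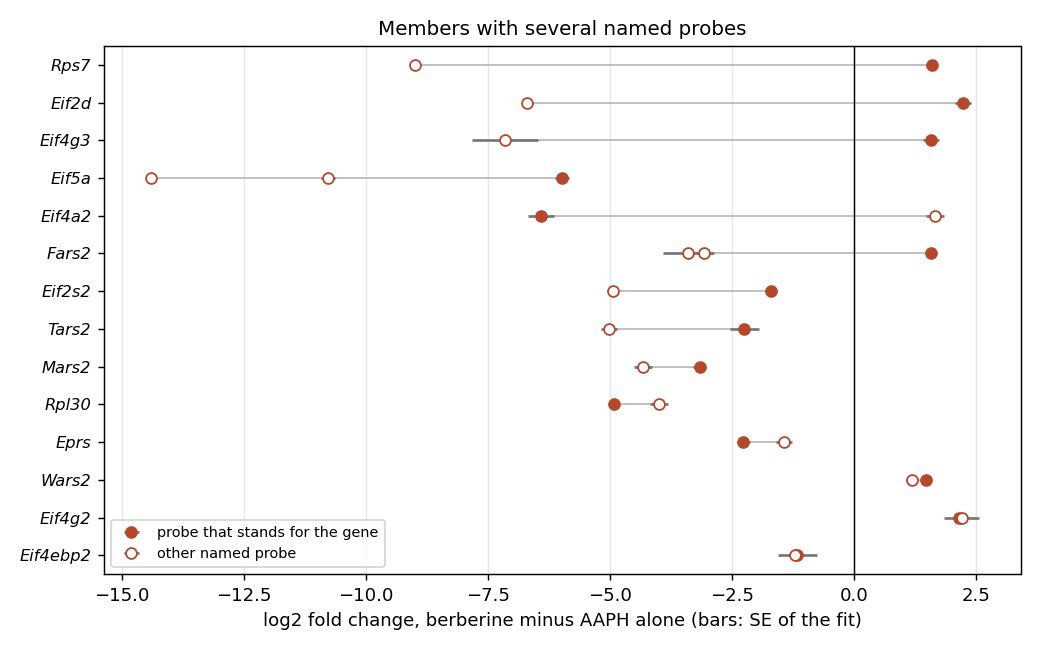
Log2 fold change (berberine minus AAPH alone) with the SE of the fit for every named probe of the 14 members with several probes, filled circles for the probe that stands for the gene and open circles for the others. Rps7, Eif2d, Eif4g3, Eif4a2 and Fars2 have probes on both sides of 0, and the widest gap, in Rps7, is 10.59. Fitted values of probes at background, such as the lowest of Eif5a, are not measured folds.

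Beyond the members, 148 genes of 7 lists on neighbouring steps of translation were measured under a name, and 100 of them fell and 48 rose. All are named only through the authors' prior calls, so the like background is that of named genes, 44.1% lower and 55.6% higher. Over all probes 22.5% were lower and 40.2% higher. Ribosome biogenesis had 40 measured genes of 71 listed, with 24 falls and 16 rises (median log2 −1.32). Nop10, a protein of the particles that modify ribosomal RNA, fell by 8.07 ± 0.26 on the log2 scale and Nop56, of the methylating particles, was at least 135-fold lower, while the nucleolar protein gene Nol6 rose by 3.62 ± 0.11 and the rRNA methyltransferase gene Dimt1 by 3.22 ± 0.13. mTOR signalling to translation had 19 of 25, with 13 falls and 6 rises (median −1.98, or −1.63 with bounds). Larp1, which binds the pyrimidine tract of ribosomal protein mRNAs, was at least 69.4-fold lower, Mtor itself at least 25.0-fold and the mTOR inhibitor Akt1s1 at least 96.0-fold. Pdcd4, which blocks eIF4A, rose by 2.27 ± 0.14 and Tsc1, an upstream brake on mTOR, by 2.19 ± 0.17.

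Around eIF2 phosphorylation, 9 of 15 listed genes had a named probe, with 7 falls and 2 rises (median log2 −5.10, or −3.75 with the 3 genes at background at their bounds). Ppp1r15b, which directs a phosphatase to eIF2, was at least 115-fold lower, and Gcn1l1, the activator of GCN2, at least 13.5-fold. The stress-induced counterpart Ppp1r15a rose by 1.22 ± 0.12 and the PKR inhibitor gene Dnajc3 by 1.29 ± 0.12, but neither was called on the values as deposited (log2 0.22, limma adjusted p = 0.601, and 0.93, adjusted p = 0.0712). Of 25 accessory initiation and poly(A) factors 12 were measured, 9 lower and 3 higher (median −2.54), with the helicase Dhx29 at least 38.0-fold lower. Pabpn1, a nuclear poly(A)-binding protein, fell by 7.58 ± 0.18, while Cpeb2 rose by 2.45 ± 0.14 and Mcts1 by 1.90 ± 0.20. Of 30 genes of termination, recycling and quality control 22 were measured, 15 lower and 7 higher (median −1.79, or −1.65 with bounds). Among these Srp9 of the signal recognition particle fell by 5.47 ± 0.16 and Gtpbp1 fell by 4.42 ± 0.12, the recycling ATPase gene Abce1 rose by 2.48 ± 0.18, and Hbs1l, which rescues stalled ribosomes, was at least 2.09-fold higher.

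Synthetase partners and tRNA-making genes had 43 of 63 measured, with 29 falls and 14 rises (median log2 −2.29). Both scaffold proteins of the multi-synthetase complex beside AIMP3 were at background with berberine. Aimp1 had 20 and 54 with berberine, against 30996 and 25266 with AAPH alone, and was at least 240-fold lower, and Aimp2 had 23 and 13 with berberine, against 2366 and 1550 with AAPH alone, at least 9.81-fold lower. Sephs2, which makes selenium donor for selenocysteine, was at least 50.1-fold lower, while the pseudouridine synthase gene Pus3 rose by 2.39 ± 0.16 and the RNA polymerase III subunit gene Polr3e by 2.37 ± 0.16. Of 14 ribosomal proteins that the symbol rule missed 3 were measured and all fell, namely Rpl7l1 (−3.33 ± 0.16), Fau (−3.13 ± 0.11) and Gnb2l1, the scaffold RACK1 (−0.88 ± 0.15, not called on the values as deposited, log2 −0.37, limma adjusted p = 0.427).

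The authors' deposited table gives a log2 ratio for 102 of the 105 member probes, all with the sign found here. Of these probes 14 stand at −6.64, the lowest value in the authors' deposited table, which is a floor and not a measured ratio. The table was made from the same arrays and holds only probes called on them, so the shared signs are not independent.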

How the data were processed

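Cy5-labelled aRNA, per the labels, was hybridised to single-colour arrays. The main table holds deposited linear intensities of 26423 probes on 4 arrays. For background correction and scaling, steps were not given in the sources used here. A sheet of 9800 called probes deposited by the authors adds symbols, group means of normalized intensity, detection p-values by group, and a log2 ratio of the groups with a p-value, per the file headers. Its groups G3 and G1 were read as berberine and AAPH alone, because 99.2% and 99.9% of their means lay within 5% of the array means. The tables held 0 columns that belong to no sample.

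Intensities were floored at 1, log2-transformed, quantile-normalized and fitted with limma 3.58.1 (R 4.3.3) over all probes, Benjamini-Hochberg adjusted, threshold 0.05. The fit was tested on simulated data with equal noise on every probe and few changed probes. On these arrays 62.7% of probes passed, so that test could not show how the normalization behaves here. The median log2 difference of all probes was 0.39 here. It was 0.13 without normalization and 0.74 with median centring. Fold changes and calls are relative to 0, and this median was not subtracted, so small rises should be set beside it. The named probe with the highest mean stands for a gene. Fold changes are berberine minus AAPH alone, with the SE of the fit. Levels of different probes are not compared.

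Members and lists were chosen with earlier results of these data known. In each class the 4 largest falls and rises are given by array, with other members added by role after their values were seen, all eIF2 kinases, 4E-binding proteins and genes with opposed probes, and the 2 largest falls and rises of each other list. The values of 1 large-subunit gene, kept in the counts and medians, are not reported here. Sequences are from RefSeq (GRCm38.p6). All 89 Entrez identifiers matched, 4 under another symbol. Other scalings, floors, filters, probe choices, a replicate block and leaving out each array were tried. Medians with bounds and marker sums without the brightest marker were added after seeing the data.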

Additional observations from a re-analysis of the deposited data

How the results depend on the processing

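The counts of 59 genes lower and 28 higher stayed within 1.5 times under other scalings, floors of 16 and 64, a filter on dim probes, a trended and robust prior, other choices of probe and without each array. They ranged from 57 to 64 lower and 19 to 29 higher over those of these settings that keep all arrays, with 19 higher as deposited, and from 55 to 60 lower and 27 to 28 higher without each array. They were smaller by construction where members were left out, at 38 lower with PH_mM probes only, 19 lower and 5 higher with mMC probes only, and 35 lower without members at background. Calls over all probes numbered 8770 as deposited, against 16578, and 11555 to 15508 without each array. The replicate block gave 59 lower and 28 higher. The labels share only replicate numbers, and same-numbered arrays did not deviate together (Pearson r −0.016 over all probes). Over the other lists 134 to 148 genes were called without each array, and 128 as deposited, against 148. The small-subunit median turned to 1.45 under the filter on dim probes and 1.60 without members at background, and the mitochondrial synthetase median to 0.13 with PH_mM probes only and 0.13 without members at background, since both choices leave out genes that fell or change which genes count. No mitochondrial synthetase gene had a fold change near 0.13. Averaging the probes of a gene, the log2 fold change turned to −2.22 for Eif2d, −2.78 for Eif4g3, −1.62 for Fars2 and −3.70 for Rps7, and with the dimmest probe to −6.69 for Eif2d, 1.66 for Eif4a2, −7.15 for Eif4g3, −3.39 for Fars2 and −8.99 for Rps7. Each of these dimmest probes was at background in a group, so the values are fitted ones and not measured folds, with bounds of 50.2-fold, 2.22-fold, 11.1-fold, 1.99-fold and 302-fold in that order. No other member changed sign under any alternative run. Signal near background limits the size of falls in 24 members.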
